A study of Rattus norvegicus with 62 samples.

Results

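The 38 genes described here carry out DNA replication and cell division: 16 act at the G1/S transition and in S phase, and 22 act in G2 and mitosis. They were listed by name as known proliferation genes, 38 of the 40982 genes in the count tables, and each passed the filter on low counts in every comparison. The list was chosen with earlier results of these data known. Levels were counted in L4 dorsal root ganglia of rats (Rattus norvegicus) after chronic constriction injury (CCI) of the sciatic nerve, a model in which loose ligatures around the nerve cause neuropathic pain. In each of 5 arms the ganglion of the injured, ipsilateral side (IL) was set against the ganglion of the opposite, contralateral side (CL). The arms were males at 24 h (6 IL and 6 CL libraries), males at 1 week (7 and 7), males at 5 weeks (5 and 5), females at 1 week (7 and 7) and females at 5 weeks (6 and 6). Every animal had the surgery, so the CL ganglion comes from an operated rat and not from an untouched or sham-operated one. Strain and age are not given in the labels used here. The comparisons concern the effect of the injury on gene expression, its course over the weeks, and females set beside males.

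A cell that divides first commits itself through cyclin E and the E2F transcription factors, which switch on the genes for DNA replication. Later the FOXM1 and MYB-type complexes switch on the genes for the spindle, the kinetochores and the destruction of mitotic proteins. Sensory neurons of the adult ganglion do not divide, whereas satellite glia, Schwann cells, vessel cells and macrophages around them can. Whole ganglia were sequenced, so fewer cells of a type and less RNA per cell cannot be told apart.

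The promoters of members from both groups are shown first, because the groups are known for different promoter elements. RefSeq promoter windows of build GRCr8, 250 bases before and 50 bases after the annotated start, were in the sequence table for 26 of the 38 members, matched by gene ID. Mcm5 had the smallest p of the G1/S and S phase members in males at 1 week. Among the G2 and mitosis members Tpx2 had the smallest p but no entry, so Cdc20, the next by p, is shown. The Mcm5 window is chr19:13488563-13488862 on the plus strand and the Cdc20 window is chr5:137255750-137256049 on the minus strand, each written 5′ to 3′. Capitals mark matches to the motifs named below.
Mcm5: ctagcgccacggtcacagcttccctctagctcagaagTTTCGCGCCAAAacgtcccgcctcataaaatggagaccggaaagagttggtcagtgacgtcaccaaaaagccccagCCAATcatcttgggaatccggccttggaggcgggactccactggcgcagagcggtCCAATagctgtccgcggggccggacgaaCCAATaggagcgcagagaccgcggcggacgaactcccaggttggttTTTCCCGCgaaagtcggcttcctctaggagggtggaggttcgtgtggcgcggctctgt
Cdc20: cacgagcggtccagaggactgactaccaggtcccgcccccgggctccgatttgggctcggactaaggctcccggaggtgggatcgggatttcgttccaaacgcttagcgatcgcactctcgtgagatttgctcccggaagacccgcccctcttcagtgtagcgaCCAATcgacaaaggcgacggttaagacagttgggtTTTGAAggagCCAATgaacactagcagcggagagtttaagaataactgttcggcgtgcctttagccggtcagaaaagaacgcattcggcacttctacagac

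Motifs were searched on both strands. The E2F motif was read as TTTCCCGC, TTTCGCGC, TTTGCCGC or TTTGGCGC, the cell cycle homology region (CHR) as TTTGAA, and the CCAAT box as CCAAT. Mcm5 held 3 E2F matches, the first pair of which overlap and begin 213 and 209 bases before the start, while the last begins 8 bases before it. It also held 3 CCAAT boxes and no CHR. Cdc20 held a CHR that begins 51 bases before the start, between CCAAT boxes that begin 86 and 41 bases before it, and no E2F match. Over the members with an entry, an E2F match was present in 7 of 10 G1/S and S phase promoters and in 1 of 16 G2 and mitosis promoters (Cdk1), against 2.14% of all 33469 promoters of this length. A CHR was present in 1 of 10 G1/S and S phase promoters (Mcm2) and in 12 of 16 G2 and mitosis promoters, against 18.3% of all promoters. A CCAAT box was present in 5 of 10 and 11 of 16, against 37.5% of all promoters. A match describes letters in these windows and is not evidence that a factor binds.

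The 62 libraries held 16.9 to 33.5 M (mega) counts. Levels are given in CPM, counts scaled to a common library size of 1 M. The males at 1 and 5 weeks stand in 1 count table, and the females and the males at 24 h in another. The tables were scaled separately, so levels are compared within a table only. Summed markers of sensory neurons, of which 9 of 10 were in the tables, lay between 16947 and 27044 CPM in every library. In males at 1 week they were 16947 to 21676 CPM on the IL side and 23427 to 25052 CPM on the CL side. In females they were 18485 to 22317 and 23446 to 25364 CPM at 1 week. At 5 weeks females had 21010 to 22563 and 24882 to 27044 CPM. The sides overlapped in males at 24 h and 5 weeks. Of 9 neuron markers tested 6 fell and 2 rose in males at 1 week, and 5 fell and 2 rose at 5 weeks. In females 5 fell and 3 rose at 1 week, and 5 fell and 2 rose at 5 weeks. The members together gave 152 to 458 CPM. Per kilobase of exon, Pcna, the sliding clamp of DNA polymerase, was the highest member in every group, at 28.9 CPM per kilobase on the IL side and 25.9 on the CL side of males at 1 week. E2f8, a repressor of the E2F family, was the lowest, at 0.28 on the IL side and 0.078 on the CL side there.

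A library that stood apart bears on the 24 h arm. The mean log2 level of the members, set relative to the CL mean of each arm, was 0.84 in the 24 h CL library of number 5, against -0.32 to 0.14 in the other 5 CL libraries. In that library the markers of erythroid cells summed to 3358 CPM and those of granulocytes and their precursors to 529 CPM, the highest of its count table for both lists. The 24 h CL library with the next highest members (number 3) also had the next highest sums, 2004 and 238 CPM, and the library with the lowest members (number 6) the lowest erythroid sum, 487 CPM, and the lowest granulocyte sum, 19.8 CPM. The IL libraries of numbers 3 and 6 had members at -0.03 and 0.04, against -0.54 to -0.42 in the other 4, and erythroid sums of 1003 and 1310 CPM against 294 to 483 CPM. Members, erythroid markers and granulocyte markers therefore moved together across these libraries. In CL numbers 5, 3 and 6 macrophage sums were 502, 353 and 193 CPM, the highest, next and lowest. Their B lineage and marrow lymphoid sums were 125, 102 and 77.5 CPM, in the same order. CL number 5 also had the highest fibroblast (8931 CPM) and endothelial (322 CPM) sums of its group. IL numbers 3 and 6 had macrophage sums of 210 and 303 CPM, within the 207 to 317 CPM of the group. Of 11 erythroid and 11 granulocyte markers, Ltf alone was at 0 in all libraries of a group, and the part of any of these cells in the 24 h result was not tested.

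**Figure D1:**
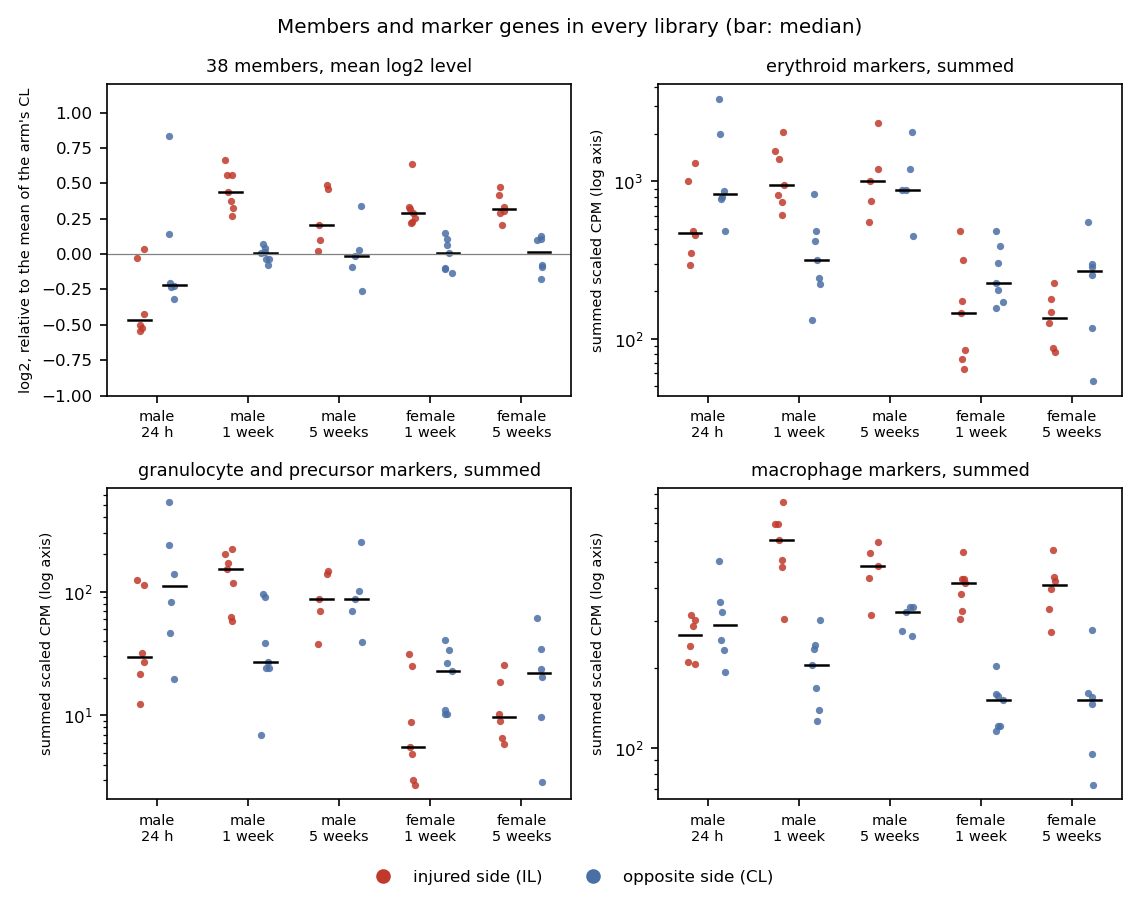
Mean log2 level of the 38 members relative to the CL mean of each arm, and summed CPM of erythroid, granulocyte and macrophage markers on log axes, for each library; red points are IL, blue points CL, and bars are medians. The 24 h CL point at 0.84 for the members is also the highest point for the erythroid (3358 CPM) and granulocyte (529 CPM) sums, while in females the members are higher on the IL side and the erythroid and granulocyte medians are lower there.

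At 24 h in males most division genes lay lower on the injured side, but the calls rested on single libraries. Without CL library number 5, 1 member was called. Of the 38 members 9 fell and 0 rose, where 5.90% of the 18125 genes tested fell and 8.23% rose. At an unadjusted p under 0.05, 21 members were lower and 0 higher. The share of all genes at that unadjusted threshold is not given here. DESeq2 and limma-voom called 11 and 8 members lower and 0 higher, with 2633 and 2438 genes called in either direction. The median log2 fold change of IL over CL was -0.48 over the members and -0.01 over all genes tested, with 37 of 38 members below 0. Those that fell were 7 of 22 members of G2 and mitosis (Mki67, Ccna2, Birc5, Aurkb, Tpx2, Bub1 and Ndc80) and 2 of 16 of G1/S and S phase (Ccne1 and Rrm2).

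Mki67, the antigen used to count dividing cells, had 6.28, 7.73 and 18.4 CPM as the lowest, median and highest IL library, against 9.42, 15.1 and 65.6 CPM in CL libraries. The sides overlapped, and the single CL value of 65.6 CPM, in library number 5, was far above the next, 27.5 CPM. The log2 fold change was -1.2 ± 0.33 (SE), with an adjusted p of 0.0116 in edgeR and IL was the higher side in 1 of 6 pairs. Without that library it was -0.60 with an adjusted p of 0.144, and with the replicate block its adjusted p was 0.0592. Ccna2, cyclin A, the partner of both S phase and mitotic kinases, had 1.05, 1.47 and 2.43 CPM on the IL side, against 2.36, 2.64 and 6.73 CPM on the CL side. The ranges barely overlapped and IL was the lower side in all 6 pairs, with a log2 fold change of -0.99 ± 0.22 and an adjusted p of 0.00157. It was -0.67 with an adjusted p of 0.0143 without CL library number 5. Ndc80, which ties kinetochores to microtubules, had 2.29, 2.57 and 3.33 CPM on the IL side, against 3.04, 3.45 and 8.03 CPM on the CL side, with overlap of the sides. Its log2 fold change was -0.65 ± 0.18 (adjusted p 0.011), and -0.37 (adjusted p 0.0994) without that library.

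Among the G1/S and S phase members, Rrm2, the small subunit of the enzyme that makes deoxynucleotides, had 3.88, 4.75 and 7.00 CPM on the IL side, against 5.57, 6.18 and 15.9 CPM on the CL side. The sides overlapped. The log2 fold change was -0.66 ± 0.20 with an adjusted p of 0.0228, and -0.36 with an adjusted p of 0.185 without CL library number 5. Its call was also lost without CL number 3, IL number 2 or IL number 4 (adjusted p 0.051, 0.0547 and 0.0673). Ccne1, cyclin E, which starts S phase with its kinase, had 5.28, 5.86 and 7.09 CPM on the IL side, against 6.38, 6.81 and 11.0 CPM on the CL side with overlap of the sides (log2 fold change -0.31 ± 0.10, adjusted p 0.0434). Its call was lost without CL number 3 or 5 or any of IL numbers 1 to 4 (adjusted p 0.0654 to 0.247). Tk1, thymidine kinase, had 3.06, 4.36 and 6.43 CPM on the IL side and 4.73, 5.41 and 13.3 CPM on the CL side and missed the threshold (adjusted p 0.0514). Top2a, the topoisomerase that untangles sister chromosomes, also missed it, with 3.60, 5.04 and 8.41 CPM on the IL side and 5.82, 6.21 and 23.9 CPM on the CL side (adjusted p 0.0712). Both passed without any 1 of 5 libraries (CL numbers 1, 2, 4 and 6, and IL number 6). Pcna had 28.7, 32.1 and 38.2 CPM on the IL side and 28.7, 31.5 and 38.4 CPM on the CL side, nearly the same range (log2 fold change 0.05 ± 0.06, adjusted p 0.684).

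The 24 h count rested on single libraries. Without CL library number 5 it was 1 member and the members' median was -0.22. Without CL library number 6 it was 16, and without CL number 2 or IL number 6 it was 15. Without CL number 3 it was 5, and without IL number 2 or IL number 4 it was 4. Over the arm 3 of 11 erythroid and 2 of 9 granulocyte markers tested fell and 0 rose (medians -1.17 and -1.64), and 0 of 12 macrophage markers passed (median 0.17). Fibroblast markers fell in 2 of 10 cases and B lineage and marrow lymphoid markers in 1 of 7 (medians -0.34 and -1.01), and 0 of either list rose. In the pairs of numbers 1 to 6, in that order, 5, 6, 10, 8, 1 and 32 of the 38 members were higher on the IL side. Pair 6 thus went against the other 5. Pairs 5 and 6 are paired by an animal code in the labels, yet over all genes their sides correlated at 0.01 each after group means were removed, against 0.12 and 0.23 with the numbers crossed, so their pairwise counts are uncertain.

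**Figure D2:**
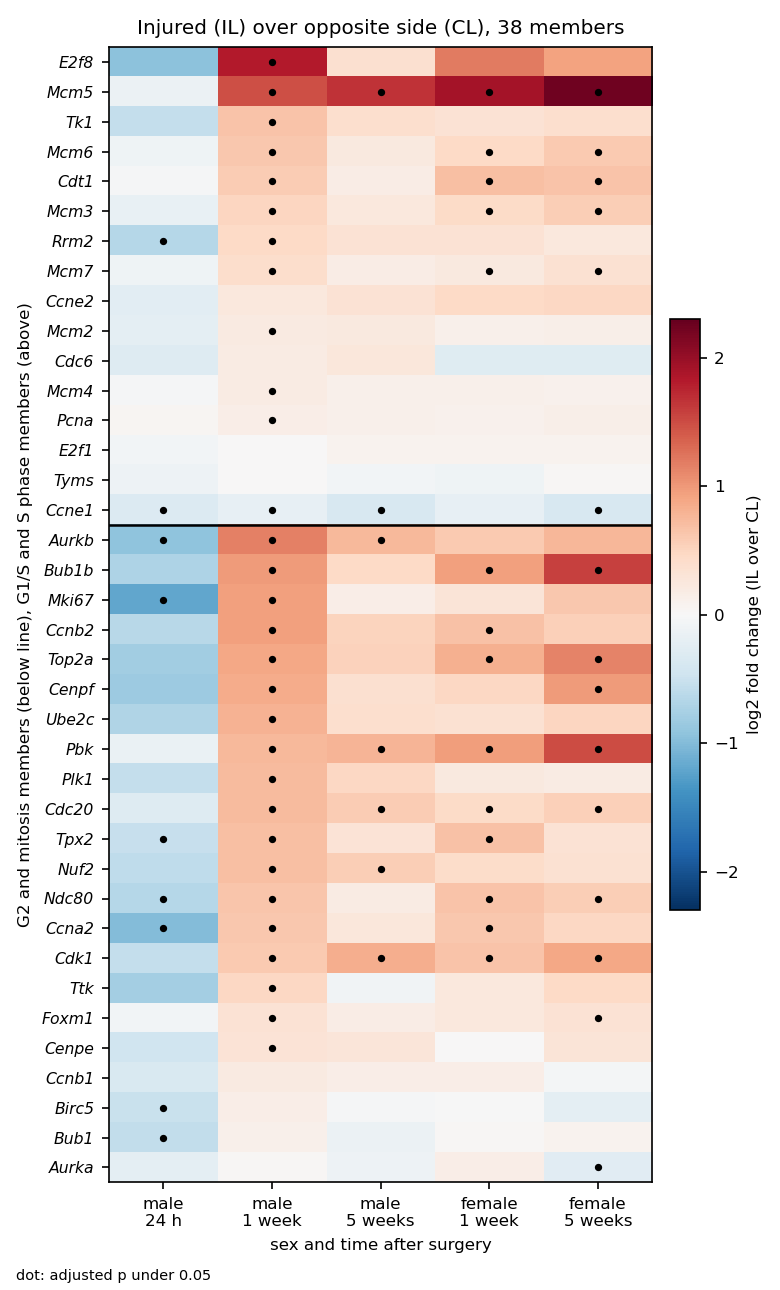
Log2 fold change of IL over CL (colour) for each of the 38 members (rows, G1/S and S phase above the line, ordered by males at 1 week within each group) in the 5 arms (columns); dots mark an adjusted p under 0.05. Nearly all members are below 0 in males at 24 h and above 0 in males at 1 week, Mcm5 is far above the other MCM genes in the 4 later arms, and Ccne1 is below 0 in every arm.

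At 1 week in males most of the 38 genes were higher in the injured ganglion. Of the members 29 rose and 1 (Ccne1) fell, where 23.6% of the 18980 genes tested rose and 23.4% fell. The members' median log2 fold change was 0.59 and that of all genes tested was 0.01. In G2 and mitosis 18 of 22 members rose, by 0.32 (Cenpe, a kinetochore motor) to 1.16 (Aurkb, the kinase of the chromosomal passenger complex) on the log2 scale. In G1/S and S phase 11 of 16 rose, by 0.15 (Pcna) to 1.82 (E2f8). The members that did not pass were Ccne2, Cdc6, E2f1, Tyms, Ccnb1, Birc5, Bub1 and Aurka, with log2 fold changes of 0.01 to 0.25. Counts were 28 to 30 when each library was left out in turn.

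Mcm5, a subunit of the MCM helicase that opens DNA for replication, had 6.60, 10.5 and 13.1 CPM as lowest, median and highest IL library, against 3.34, 3.80 and 4.45 CPM on the CL side. The sides did not overlap and IL was higher in 7 of 7 pairs. The log2 fold change was 1.48 ± 0.14 (adjusted p 8.85e-09). Pairs in males at 1 and 5 weeks are libraries of the same number, which the labels do not tie to an animal. Mcm6, of the same helicase, had 5.82, 7.10 and 9.57 CPM on the IL side, against 4.05, 4.83 and 5.23 CPM on the CL side, without overlap (log2 fold change 0.62 ± 0.12, adjusted p 0.000105). Mcm7 had 12.5, 15.4 and 16.1 CPM on the IL side, against 10.2, 11.1 and 13.1 CPM on the CL side, with a slight overlap and 7 of 7 pairs higher (0.41 ± 0.07, adjusted p 4.52e-05). Pcna was higher in 7 of 7 pairs by a small amount, with 30.7, 33.6 and 35.8 CPM on the IL side against 29.0, 29.8 and 32.8 CPM on the CL side (0.15 ± 0.04, adjusted p 0.00224). Ccne1 went the other way in all 7 pairs, with 5.70, 6.38 and 7.69 CPM on the IL side against 6.69, 7.16 and 8.48 CPM on the CL side. Its log2 fold change was -0.19 ± 0.07 with an adjusted p of 0.0344, a call that was lost without any of 7 single libraries (CL numbers 3, 4 and 6, and IL numbers 2, 4, 5 and 7) and in a fit of these 2 groups alone, with adjusted p of 0.0518 to 0.102 over the settings that lost it.

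Of the G2 and mitosis members, Tpx2, which builds the spindle around chromosomes, had 7.02, 8.88 and 10.1 CPM on the IL side, against 4.45, 5.30 and 7.32 CPM on the CL side, with a single CL library within the IL range (log2 fold change 0.70 ± 0.11, adjusted p 5.81e-06). Cdc20, the activator of the ubiquitin ligase that ends mitosis, had 4.46, 5.03 and 7.47 CPM on the IL side, against 2.67, 3.31 and 3.97 CPM on the CL side, without overlap (0.72 ± 0.11, adjusted p 7.58e-06). Ndc80 had 3.45, 4.32 and 4.94 CPM on the IL side and 2.52, 2.75 and 2.92 CPM on the CL side, again without overlap (0.63 ± 0.11, adjusted p 4.83e-05). Each of these genes was higher on the IL side in 7 of 7 pairs. Mki67 had 11.3, 18.4 and 23.6 CPM on the IL side, against 6.17, 9.05 and 12.8 CPM on the CL side, with overlapping ranges (0.94 ± 0.27, adjusted p 0.00647). Top2a had 8.19, 10.2 and 12.9 CPM on the IL side, against 4.89, 5.63 and 7.19 CPM on the CL side, and the sides lay apart (0.89 ± 0.22, adjusted p 0.00159). With the 5-week CL libraries in place of those of 1 week, Mki67 lost its call (adjusted p 0.0892), as did Mcm7 (adjusted p 0.0839).

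Markers of blood-forming and immune cells were higher on the same side in this arm. All 11 erythroid markers rose (median log2 fold change 1.63), as did 9 of 10 granulocyte markers tested (1.79) and 10 of 12 macrophage markers (1.44). B lineage and marrow lymphoid markers rose in 6 of 7 cases tested and fell in 1 (median 1.53). T and NK cell markers rose in 2 of 8 cases (0.95) and fibroblast markers in 2 of 10 (0.45), with 0 lower, and all members of both lists were above 0. Erythroid sums were 610 to 2069 CPM in IL libraries and 132 to 833 CPM in CL libraries, granulocyte sums 57.7 to 219 and 6.90 to 95.4 CPM, and macrophage sums 305 to 839 and 126 to 303 CPM. The part of any of these cells in the members' rise was not tested. Schwann cell markers went down in 8 of 10 cases and satellite glia markers in 3 of 10, with 3 of 10 up.

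The change between 24 h and 1 week was itself tested in a joint fit of both tables. The side difference at 1 week minus that at 24 h was above 0 for all 38 members and passed the test for 28, where 23.0% of the 19209 genes tested passed in either direction. The median difference was 0.96 over the members and 0.00 over all genes tested. It was largest for E2f8 (2.76 ± 0.63, adjusted p 0.00081), Mki67 (2.14 ± 0.43, adjusted p 0.00019) and Aurkb (2.08 ± 0.39, adjusted p 5.9e-05), while Ndc80 had the smallest adjusted p (1.28 ± 0.22, adjusted p 1.0e-05). In G2 and mitosis 19 of 22 members passed and in G1/S and S phase 9 of 16. Counts were 21 without the 24 h CL library of number 5 and up to 31 without the 24 h IL library of number 6. The erythroid (11 of 11) and granulocyte (10 of 10) markers passed in the same direction, with medians of 2.75 and 3.33, as did 8 of 12 macrophage markers (1.21), 6 of 7 B lineage and marrow lymphoid markers (2.33), 4 of 10 fibroblast markers (0.89) and 2 of 9 T and NK cell markers (1.29). Their part was not tested. Time and count table cannot be told apart in this comparison.

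**Figure D3:**
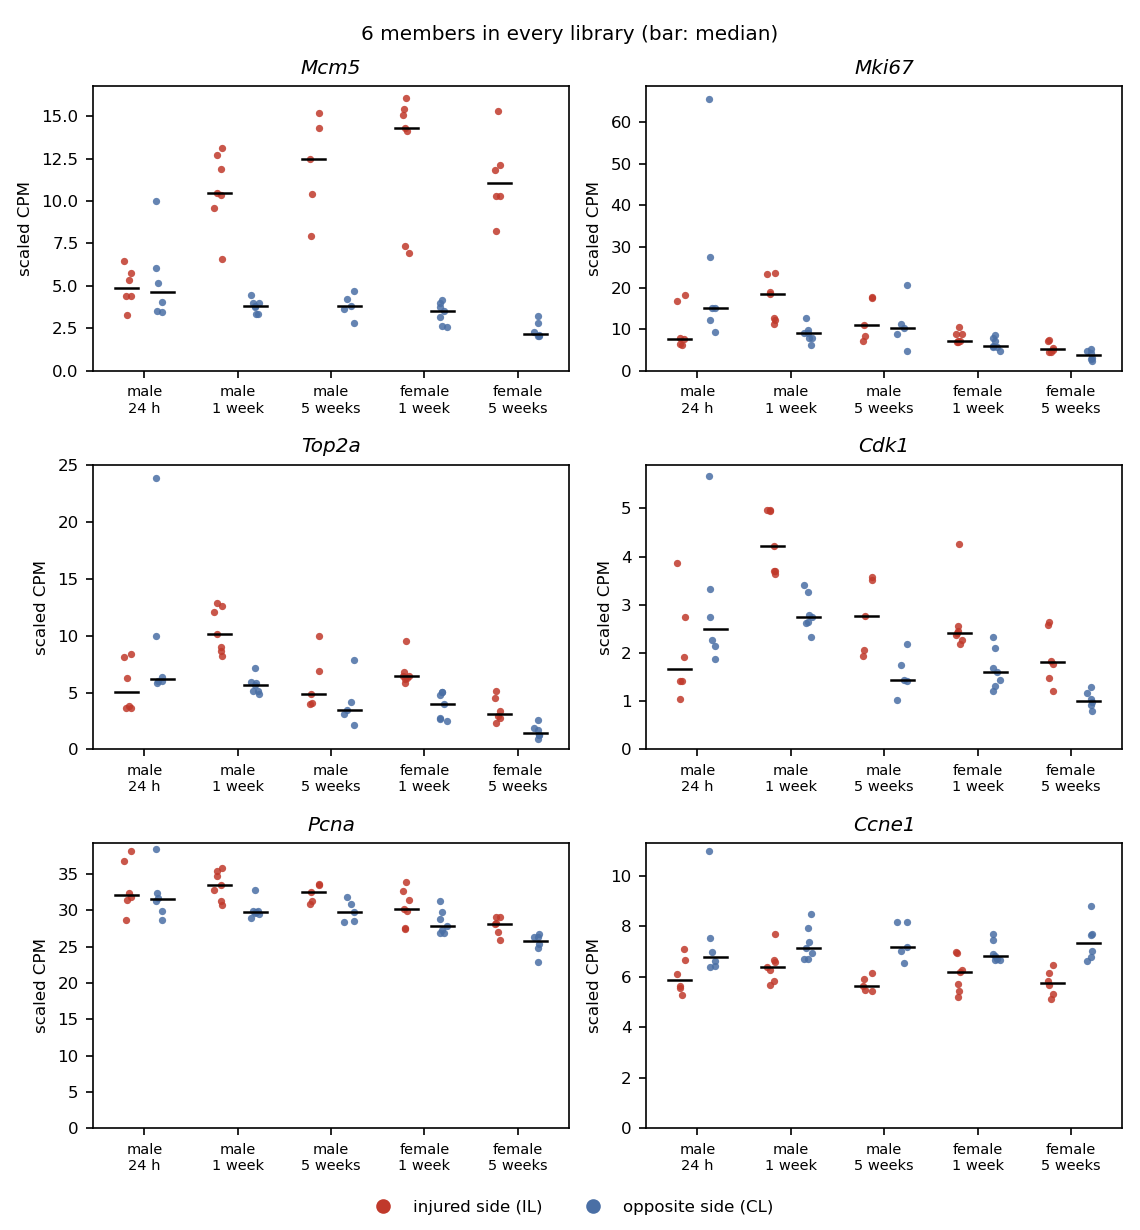
Scaled CPM of Mcm5, Mki67, Top2a, Cdk1, Pcna and Ccne1 in every library, by arm, with IL libraries in red left of CL libraries in blue and bars at the medians; the y axes start at 0. Mcm5 IL libraries lie above all CL libraries of their arm from 1 week on, the 24 h CL library at 65.6 CPM of Mki67 is also the highest for Top2a at 23.9 CPM, and Ccne1 medians are lower on the IL side in every arm.

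At 5 weeks in males fewer members passed. Of the 38, 6 rose (Mcm5, Cdk1, Aurkb, Nuf2, Pbk and Cdc20) and 1 fell (Ccne1), where 16.0% of genes tested rose and 18.7% fell, so the share of members that rose was close to that of all genes. The members' median log2 fold change was 0.26, against 0.00 for all genes tested, and 32 of 38 were above 0. With replicate number as a block 11 rose and 1 fell. The genes called in either direction also grew, from 6589 to 7780 of 18980.

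Mcm5 had 7.93, 10.4, 12.5, 14.3 and 15.2 CPM in IL libraries, against 2.84, 3.63, 3.81, 4.23 and 4.69 CPM in CL libraries. No CL library reached the IL range (log2 fold change 1.66 ± 0.18, adjusted p 8.65e-08). Cdk1, the kinase that drives entry into mitosis, had 1.93, 2.06, 2.76, 3.52 and 3.58 CPM in IL libraries and 1.02, 1.42, 1.44, 1.74 and 2.18 CPM in CL libraries. The sides overlapped by 1 CL library, and IL was higher in 5 of 5 pairs (0.83 ± 0.19, adjusted p 0.00134). Cdc20 had 3.5, 3.61, 4.12, 4.45 and 4.58 CPM in IL libraries and 2.24, 2.48, 2.78, 2.96 and 3.10 CPM in CL libraries, without overlap (0.58 ± 0.14, adjusted p 0.00188). Pbk, a mitotic kinase, had 0.92, 1.05, 1.16, 1.17 and 1.55 CPM in IL libraries and 0.30, 0.56, 0.59, 0.79 and 1.16 CPM in CL libraries, higher in 5 of 5 pairs (0.79 ± 0.21, adjusted p 0.00523). Set against the CL libraries of 1 week, Cdk1 lost its call and its sign (-0.03, adjusted p 0.915), Pbk and Cdc20 lost theirs (adjusted p 0.386 and 0.0516), and Mcm5 kept it (1.67).

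Ccne1 had 5.45, 5.48, 5.62, 5.92 and 6.14 CPM in IL libraries, all below the CL libraries at 6.54, 7.03, 7.19, 8.17 and 8.2 CPM (log2 fold change -0.38 ± 0.09, adjusted p 0.00148). The sides overlapped for the remaining genes. Mki67 had 7.23, 8.41, 11.1, 17.5 and 17.8 CPM in IL libraries and 4.82, 8.85, 10.3, 11.2 and 20.7 CPM in CL libraries (0.16 ± 0.32, adjusted p 0.765). Top2a had 3.98, 4.07, 4.89, 6.91 and 9.95 CPM in IL libraries and 2.15, 3.07, 3.49, 4.21 and 7.89 CPM in CL libraries (0.52 ± 0.27, adjusted p 0.151). Neither gene was told apart between the sides. Rrm2 had 4.30, 4.99, 6.03, 6.16 and 6.71 CPM in IL libraries and 3.44, 4.01, 4.56, 4.70 and 5.75 CPM in CL libraries (adjusted p 0.0658, or 0.0441 with the replicate block), and passed without CL number 3 or IL number 2. Pcna had 30.8, 31.2, 32.5, 33.5 and 33.6 CPM in IL libraries and 28.4, 28.5, 29.8, 30.9 and 31.8 CPM in CL libraries (adjusted p 0.0659, or 0.0396 with the replicate block), and passed without CL number 4 or IL number 2.

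The CL library of number 3 held the highest Mki67 and Top2a of its side. Its members' mean was 0.34, against -0.26 to 0.03 in the other 4 CL libraries, and its erythroid sum of 2065 CPM and granulocyte sum of 253 CPM were the highest of the CL side. Pair 3 was the only pair of this arm with fewer than 28 members higher on the IL side (10 of 38). Without that library 17 members rose and 1 fell, and Top2a passed (adjusted p 0.00667). The share of all genes that rose in that fit is not given here. Over the arm, 0 of 11 erythroid and 0 of 10 granulocyte markers passed in edgeR, while 5 of 12 macrophage markers rose and 1 fell. Satellite glia markers rose in 4 of 10 cases (median -0.07) and T and NK cell markers in 1 of 8. Macrophage sums were 317 to 595 CPM in IL libraries and 263 to 339 CPM in CL libraries.

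At 1 week in females 14 members rose and 0 fell, where 23.9% of the 18125 genes tested rose and 21.8% fell. At an unadjusted p under 0.05, 17 were higher and 0 lower, without a share of all genes at that threshold to set beside them. DESeq2 and limma-voom called 15 and 14 members higher and 0 lower. The members' median log2 fold change was 0.34, against 0.01 over all genes tested. The risers were 5 of 16 G1/S and S phase members (Cdt1, Mcm3, Mcm5, Mcm6 and Mcm7) and 9 of 22 G2 and mitosis members (Top2a, Ccna2, Ccnb2, Cdk1, Tpx2, Bub1b, Ndc80, Pbk and Cdc20).

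Mcm5 again led, with 6.91, 14.3 and 16.1 CPM as lowest, median and highest IL library against 2.56, 3.53 and 4.19 CPM on the CL side, without overlap (log2 fold change 1.91 ± 0.21, adjusted p 2.15e-09). Cdt1, which loads the MCM helicase onto origins, had 2.05, 2.49 and 4.36 CPM on the IL side, against 1.42, 1.65 and 1.82 CPM on the CL side. The sides lay apart and 7 of 7 pairs were higher (0.68 ± 0.18, adjusted p 0.0017). Mcm6 had 4.79, 5.44 and 6.38 CPM on the IL side and 3.38, 4.04 and 5.21 CPM on the CL side, with overlap (0.45 ± 0.17, adjusted p 0.0294), and lost its call without any of 4 single libraries (IL numbers 2 and 6, CL numbers 6 and 7). Tpx2 had 5.75, 6.91 and 9.80 CPM on the IL side and 3.78, 4.65 and 5.12 CPM on the CL side, without overlap (0.68 ± 0.17, adjusted p 0.000914). Ndc80 had 3.00, 3.73 and 4.41 CPM on the IL side and 1.91, 2.38 and 3.10 CPM on the CL side (0.65 ± 0.17, adjusted p 0.00143), and Ccna2 had 2.10, 2.23 and 3.19 CPM on the IL side and 1.25, 1.6 and 2.19 CPM on the CL side (0.63 ± 0.21, adjusted p 0.0128). Both overlapped between the sides and were higher in 7 of 7 pairs. Pair 6 of this arm is less certain: over all genes IL number 6 correlated at 0.11 with its own number and at 0.17 with CL number 2.

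Top2a had 5.82, 6.44 and 9.52 CPM in IL libraries of these females, against 2.52, 4.02 and 5.09 CPM in CL libraries, without overlap (0.82 ± 0.28, adjusted p 0.0177). Mki67 had 6.82, 7.29 and 10.5 CPM on the IL side and 4.77, 6.00 and 8.59 CPM on the CL side, and was higher in 4 of 7 pairs only (0.29 ± 0.32, adjusted p 0.485). Pcna had 27.4, 30.1 and 33.9 CPM on the IL side and 26.9, 27.8 and 31.2 CPM on the CL side (adjusted p 0.175), and Ccne1 had 5.18, 6.20 and 6.98 CPM on the IL side and 6.68, 6.83 and 7.70 CPM on the CL side (-0.19 ± 0.10, adjusted p 0.10). The sides of these 3 genes overlapped. IL library number 6 held the highest Top2a and the highest members' mean (0.64, against 0.22 to 0.33 in the other 6), and 8 members rose without it. Without CL library number 3 the count was 9.

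The share of counts from ribosomal RNA differed between the sides of this arm, at 0.69 to 1.42% in IL libraries and 1.69 to 2.76% in CL libraries. The ranges do not overlap, so this share and the side cannot be told apart. With the share as a covariate 1 member rose, Mcm5 (1.18, adjusted p 0.023). The erythroid and granulocyte markers did not rise here: 0 of 11 and 0 of 9 passed, with median log2 fold changes of -0.39 and -0.89. Erythroid sums were 64.2 to 481 CPM on the IL side and 156 to 485 CPM on the CL side, and granulocyte sums 2.75 to 31.3 and 10.2 to 41.0 CPM. Of 12 macrophage markers 10 rose (median 1.32), with sums of 304 to 546 CPM in IL libraries and 116 to 203 CPM in CL libraries. T and NK cell markers rose in 2 of 6 cases. The part of these cells in the members' rise was not tested. Schwann cell markers fell in 8 of 10 cases (median -0.50) and 0 rose. B lineage and marrow lymphoid markers fell in 2 of 7 cases and rose in 1, and satellite glia markers fell in 2 of 10 and rose in 1. Fibroblast and endothelial markers each fell in 1 of 10 cases and rose in 0.

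At 5 weeks in females 13 members rose and 2 fell (Ccne1 and Aurka), where 22.9% of genes tested rose and 19.1% fell. The fall of Aurka (-0.27 ± 0.10, adjusted p 0.0293) was lost with the replicate block, without the filter on low counts, in a fit of these 2 groups alone, and without CL number 3, IL number 1 or IL number 3. The median log2 fold change was 0.43 over the members and 0.01 over all genes tested. In G1/S and S phase 5 of 16 members rose (Cdt1, Mcm3, Mcm5, Mcm6 and Mcm7), and in G2 and mitosis 8 of 22 (Top2a, Foxm1, Cdk1, Bub1b, Ndc80, Cenpf, Pbk and Cdc20).

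Mcm5 had 8.25, 11.1 and 15.3 CPM on the IL side, against 2.02, 2.19 and 3.20 CPM on the CL side. The sides lay far apart (log2 fold change 2.24 ± 0.24, adjusted p 2.45e-09). Mcm7 had 11.3, 13.7 and 15.9 CPM on the IL side and 8.54, 11.1 and 12.2 CPM on the CL side, higher in 6 of 6 pairs with overlap (0.35 ± 0.10, adjusted p 0.00327). Ccne1 had 5.13, 5.76 and 6.48 CPM on the IL side, all below the CL side at 6.65, 7.36 and 8.81 CPM (-0.37 ± 0.11, adjusted p 0.00453). Bub1b, a kinase-like protein of the spindle checkpoint, had 0.63, 0.83 and 1.46 CPM on the IL side and 0, 0.34 and 0.50 CPM on the CL side, without overlap (1.57 ± 0.46, adjusted p 0.00577). Cdk1 had 1.21, 1.81 and 2.65 CPM on the IL side and 0.79, 1.01 and 1.30 CPM on the CL side, with a slight overlap (0.90 ± 0.28, adjusted p 0.010). Top2a had 2.31, 3.13 and 5.16 CPM on the IL side and 0.88, 1.48 and 2.60 CPM on the CL side, higher in 6 of 6 pairs (1.15 ± 0.35, adjusted p 0.00858). Mki67 had 4.42, 5.32 and 7.54 CPM on the IL side and 2.27, 3.70 and 5.17 CPM on the CL side, also higher in 6 of 6 pairs, and did not pass (0.62 ± 0.38, adjusted p 0.194). Pcna had 25.9, 28.2 and 29.1 CPM on the IL side and 22.9, 25.8 and 26.8 CPM on the CL side (0.14 ± 0.06, adjusted p 0.0915), with overlap.

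These calls depended on the CL libraries used. The members summed to 152 to 174 CPM in the CL libraries of this arm, below the 176 to 208 CPM of the CL libraries of females at 1 week, and to 185 to 210 CPM in the IL libraries. Against the 1-week CL libraries 1 member rose and 2 fell, with a median of -0.02. Mcm5 then kept its rise (1.74), whereas Top2a was at -0.14 (adjusted p 0.768) and Mcm7, Bub1b and Cdk1 lost their calls (adjusted p 0.185, 0.455 and 0.575). The females of 1 week set against the 5-week CL libraries gave 29 higher and 1 lower. The shares of all genes called in these swapped comparisons are not given here. The counts therefore do not tell a change of the members from a general one. Erythroid and granulocyte markers did not rise in this arm either (0 of 11 and 0 of 9, medians -1.07 and -1.34), and 10 of 12 macrophage markers rose, with sums of 272 to 553 CPM in IL libraries and 72.5 to 277 CPM in CL libraries. Fibroblast markers rose as well, 7 of 10, with a median of 0.68, as did 5 of 10 satellite glia markers (0.13), 4 of 10 endothelial markers (0.17) and 2 of 6 T and NK cell markers (0.47), with 0 lower in these lists. Their part in the members' rise was not tested.

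Few members could be told apart between weeks or between sexes. In males 0 members differed between 5 weeks and 1 week, where 0.211% of genes did. At an unadjusted p under 0.05, 4 were lower at 5 weeks and 0 higher, again without the share of all genes at that threshold. DESeq2 and limma-voom also called 0. The median difference was -0.21 over the members, and the smallest p belonged to Ndc80 (-0.44 ± 0.18, adjusted p 0.36). In females 1 member differed, where 13.5% of genes did. It was Aurka, the spindle pole kinase, whose side difference was lower at 5 weeks than at 1 week (-0.42 ± 0.14, adjusted p 0.031). Its call was lost with the replicate block, without the filter on low counts, with the ribosomal RNA share as a covariate and without any of 6 single libraries.

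Between the sexes 0 members differed at 1 week, where 1.11% of genes did, and 0 at 5 weeks, where 2.11% did. At an unadjusted p under 0.05 the counts were also 0, and DESeq2 and limma-voom called 0. At 1 week the female minus male differences ran from -0.66 to 0.41 on the log2 scale, with the smallest p for Plk1, a mitotic kinase (-0.51 ± 0.27). At 5 weeks they ran from -0.58 to 1.08, with the smallest p for Bub1b (1.08 ± 0.54). Missing the threshold does not show that the sexes were alike. Sex and count table cannot be told apart in these comparisons.

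The MCM helicase is a ring of 6 subunits (Mcm2 to Mcm7), and the log2 fold change of Mcm5 was above that of each other subunit in the 4 later arms. In males at 1 week Mcm5 had 1.48, against 0.18 (Mcm4) to 0.62 (Mcm6) for the others. In males at 5 weeks the values were 1.66 against 0.11 to 0.25, in females at 1 week 1.91 against 0.11 to 0.45, and in females at 5 weeks 2.24 against 0.10 to 0.59. At 24 h Mcm5 was at -0.13 ± 0.23. Over the leave-one-out fits its value stayed between 1.43 and 2.33 in the later arms. Mcm5 lies on chromosome 19 at 13483030 to 13504389 on the plus strand (mRatBN7.2, from the count tables). The nearest gene is Hmox1, heme oxygenase, which ends 8948 bases before it on the same strand and was looked at after its values were seen. Hmox1 was at 0.48 ± 0.10 at 24 h, 0.00 ± 0.07 and -0.22 ± 0.09 in males at 1 and 5 weeks, and -0.01 ± 0.09 and -0.17 ± 0.10 in females. In edgeR it was called higher at 24 h (adjusted p 0.000415), lower in males at 5 weeks (adjusted p 0.0495) and in no other arm. A shared cause for the 2 genes was not tested.

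Members called higher in all 4 later arms were Mcm5, Cdk1, Cdc20 and Pbk. Members called in no arm were Ccne2, E2f1, Cdc6, Tyms and Ccnb1. E2f1, the activator at the head of the G1/S genes, ranged from -0.07 to 0.08, and Tyms, thymidylate synthase, from -0.11 to 0.02. E2f8 rose in males at 1 week (1.82 ± 0.40, adjusted p 0.00053), with the largest fold of the members there, at 1.47 CPM on the IL side and 0.41 CPM on the CL side on average. In females at 1 week it was at 1.2 ± 0.53 and missed the threshold (adjusted p 0.060). Ccne2, Mcm3, Tyms, Aurka and Tpx2 overlap another annotated gene on the other strand, and whether counting used the strand is not stated. Mcm6, Mcm7 and Foxm1 overlap annotated genes on the same strand, which counting by strand would not separate. A part of the counts of all these members may belong to the neighbour.

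Other proliferation genes, 55 of them, were followed beside the members. At 24 h 7 fell and 0 rose in edgeR, where 5.90% of all genes fell and 8.23% rose. In males 31 rose and 4 fell at 1 week, and 13 rose and 1 fell at 5 weeks, where 23.6% and 16.0% of all genes rose. In females 17 rose and 4 fell at 1 week, and 12 rose and 3 fell at 5 weeks, where 23.9% and 22.9% of all genes rose. The share that rose in females at 5 weeks was thus no higher than that of all genes. Kif22, a kinesin that moves chromosome arms, had the smallest p of the list in each of the 4 later arms. In males at 1 week its IL libraries had 12.1, 14.9 and 18.3 CPM as lowest, median and highest, against 4.96, 5.60 and 6.60 CPM in CL libraries, and the sides lay apart in each later arm. Its log2 fold changes were 1.35 ± 0.11 and 1.38 ± 0.14 in males at 1 and 5 weeks and 1.67 ± 0.16 and 1.08 ± 0.18 in females, and 0.05 ± 0.18 at 24 h.

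Prc1, which bundles microtubules between separating chromosomes, rose in the 4 later arms by 0.94 to 1.05, and Kif20a, a motor of cytokinesis, by 0.86 to 1.2. Rrm1, the large subunit of the enzyme that Rrm2 completes, rose by 0.25 to 0.30 in the same arms. Ccnf, cyclin F, rose by 1.55 ± 0.18 and 1.12 ± 0.20 in females at 1 and 5 weeks, and by 1.18 ± 0.18 and 0.89 ± 0.21 in males. Prim1, the primase, rose by 0.48 ± 0.05 in females at 1 week and by 0.34 ± 0.09 and 0.32 ± 0.10 in males at 1 and 5 weeks, and was at 0.09 ± 0.06 in females at 5 weeks (adjusted p 0.214). Racgap1, a subunit of the complex that organises the division plane, went the other way in all 5 arms. At 24 h it had 10.8, 17.0 and 20.4 CPM in IL libraries, against 24.6, 27.2 and 32.1 CPM in CL libraries, without overlap. Its log2 fold changes were -0.78 ± 0.12 at 24 h, -0.52 ± 0.09 and -0.59 ± 0.12 in males at 1 and 5 weeks, and -0.68 ± 0.11 and -0.69 ± 0.12 in females, with adjusted p of 0.00027 or less. The other genes of the list named by the rule at 24 h were Kif20b (-0.59 ± 0.15), Nusap1 (-0.77 ± 0.22) and Cenpk (-0.45 ± 0.14), of which Nusap1, a spindle protein, rose in males at 1 week and in females at 1 and 5 weeks.

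**Figure D4:**
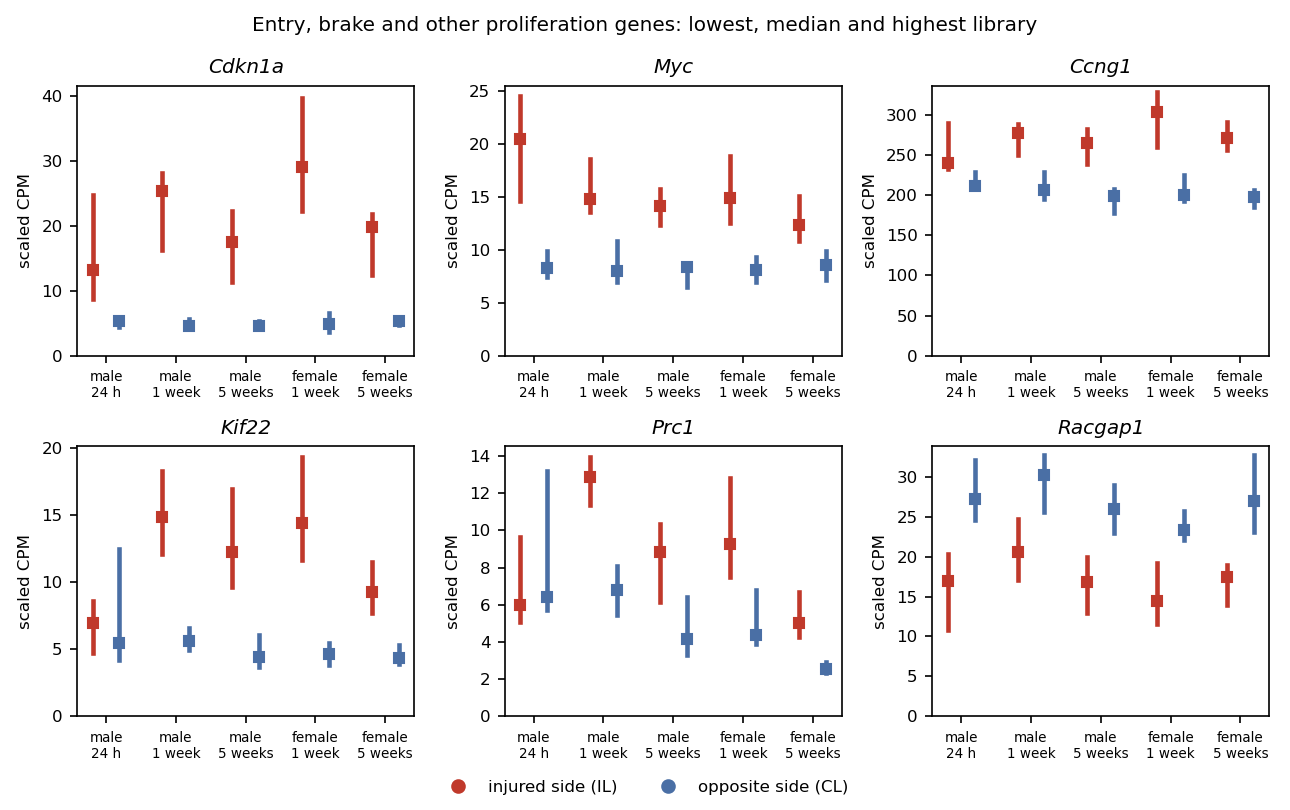
Lowest to highest library (line) and median (square) in scaled CPM for Cdkn1a, Myc, Ccng1, Kif22, Prc1 and Racgap1 in the 5 arms, with IL in red left of CL in blue; the y axes start at 0. Cdkn1a and Myc are higher on the IL side in every arm including 24 h, Kif22 and Prc1 from 1 week on, and Racgap1 is lower on the IL side in every arm.

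Among 35 genes of cell cycle entry and brakes, 9 rose and 5 fell at 24 h, where 8.23% of all genes rose and 5.90% fell and no member rose. In males 17 rose and 1 fell at 1 week, and 14 rose and 0 fell at 5 weeks in edgeR, where 23.6% and 16.0% of all genes rose. In females 13 rose and 0 fell at 1 week, and 15 rose and 3 fell at 5 weeks, where 23.9% and 22.9% of all genes rose. Cdkn1a, an inhibitor of the cyclin-dependent kinases, had the largest rise of this list in each of the 5 arms. At 24 h it had 8.79, 13.2 and 24.7 CPM as lowest, median and highest IL library, against 4.40, 5.27 and 5.76 CPM in CL libraries, and the sides did not overlap in any arm. Its log2 fold changes were 1.5 ± 0.19 at 24 h, 2.33 ± 0.14 and 1.94 ± 0.17 in males at 1 and 5 weeks, and 2.54 ± 0.18 and 1.76 ± 0.19 in females, with adjusted p of 3.6e-07 or less.

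Myc, a transcription factor that promotes growth and cell cycle entry, rose in all 5 arms. At 24 h it had 14.6, 20.4 and 24.6 CPM on the IL side, against 7.42, 8.31 and 9.87 CPM on the CL side, without overlap (1.21 ± 0.11). It rose by 0.88 ± 0.09 and 0.80 ± 0.11 in males at 1 and 5 weeks and by 0.89 ± 0.10 and 0.56 ± 0.11 in females. Ccng1, cyclin G, a target of p53 that does not drive the cycle, rose by 0.22 to 0.55 over the 5 arms. Btg2, which slows proliferation, rose in all of them as well, by 0.42 to 0.81, and Cdc25c, the phosphatase that activates Cdk1, by 0.29 to 0.75. Cdkn2b, another kinase inhibitor, rose in all 5 arms too, by 0.32 to 0.93, and in females at 5 weeks had 16.2 to 19.8 CPM in IL libraries and 8.22 to 10.2 CPM in CL libraries. Cdk4, the kinase of early G1, rose in the 4 later arms by 0.22 to 0.30. At 24 h Cdkn2d, an inhibitor of Cdk4, rose by 0.29 ± 0.06, and E2f3 fell by 0.21 on the log2 scale. In females at 5 weeks both fell (-0.19 ± 0.06 and -0.13 ± 0.05), and E2f3 also fell in males at 1 week (-0.13 ± 0.05, adjusted p 0.0421).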

How the data were processed

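The authors deposited estimated counts per gene in 2 tables, in which 74.1% and 78.1% of values above 0 are whole numbers. Per the labels, poly-A RNA (stranded TruSeq kit) was read single-end at 75 or 100 nt. Per the submitters' processing notes, the genome build was mRatBN7.2 and the tools included featureCounts 1.6.4 (Subread), STAR 2.7.2b, cutadapt 2.5 and bcl2fastq 2.20.0.422. Counts were rounded, a change of 0.0014% or less in any library's total.

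Own steps used R 4.3.3 with edgeR 4.0.16 (TMM scaling, filterByExpr with a minimum count of 10, robust quasi-likelihood fits of all groups of a table, Benjamini-Hochberg adjusted p under 0.05 over all genes tested), DESeq2 1.42.0 and limma 3.58.1. Comparisons across tables came from a joint fit of 62 libraries. A ± is the standard error, obtained from the log2 fold change and its F value. The mean log2 level of the members adds 0.5 CPM. The fits were also run on simulated counts. These were drawn without pairing or an outlying library, so they do not bear on the dependence on single libraries at 24 h. Depths were 18.9 to 33.5 M counts (males at 1 and 5 weeks) and 16.9 to 26.6 M (others), and low genes are measured with few counts. No libraries were duplicates.

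The members and lists were chosen with earlier results of these data known. All 38 members are accounted for. Values per library are given for Mki67, Top2a, Pcna, Ccne1 and the 3 smallest p of each member group per arm, and the 4 smallest p per arm are named from each of the other lists. Hmox1, E2f8, E2f1, Tyms, Plk1 and genes named in arms outside this rule were chosen after their values were seen.

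Libraries of the table with females and males at 24 h carry the same animal code on both sides. The main fits treated the sides as separate groups and left this pairing out, whereas the replicate block took it in. For males at 1 and 5 weeks the labels do not tie libraries to animals, so p-values there measure spread that may be technical, but every same-numbered pair correlated above 0.1 after group means were removed (medians 0.41 and 0.27). At 24 h the median was 0.20, with 4 of 6 pairs above 0.1. In females at 1 week 6 of 7 IL libraries correlated best with their own number, and number 6 did not. Alternatives were other scaling, filters, tools, the replicate block, fits of 2 groups alone and leaving out each library. Chosen after seeing the data were the other week's CL libraries, the ribosomal RNA share as a covariate, leaving out both sides of numbers 5 and 6 at 24 h, and leave-one-out fits of the differences.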

Additional observations from a re-analysis of the deposited data

Results flagged for a closer look

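In 50 checks for a library far from the rest of its group, 6 were positive. The threshold is set so that about 1 in 20 groups of normally spread values passes by chance. That rate was not measured on these libraries, and several checks share a library. At 24 h the CL library of number 5 stood apart for Mki67 (65.6 CPM, next 27.5), Top2a (23.9 CPM, next 9.97) and Ccne1 (11.0 CPM, next 7.53). In females at 1 week the IL library of number 6 stood apart for Top2a (9.52 CPM, next 6.85) and for the mean log2 level of the members (0.64, next 0.33). In males at 1 week a CL library, number 1, was the highest for Pcna (32.8 CPM, next 30.0). The side difference differed between times for 28 members in males (1 week minus 24 h) and for 1, Aurka, in females (5 weeks minus 1 week).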

How the results depend on the processing

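The replicate block gave 8 members called in males at 24 h and 12 in males at 5 weeks, against 9 and 7 without it, and 0 in place of 1 for females at 5 weeks minus 1 week. It changed no other count by over 1.5 times. At 24 h the block with numbers 5 and 6 crossed gave 16, and the fits of the 2 groups alone and without both sides of numbers 5 and 6 (chosen after seeing the data) gave 2 each. At 24 h same-numbered libraries correlated best with their own number in 4 of 6 pairs. In males at 5 weeks a minimum count of 30 gave 13 and the 2 groups alone 4. In females at 1 week the ribosomal RNA share as a covariate gave 1 and the CL libraries of 5 weeks 30, against 14, and in females at 5 weeks the CL libraries of 1 week gave 3, against 15. With these, Cdk1 in males at 5 weeks turned to -0.025 and Top2a in females at 5 weeks to -0.14. For females at 5 weeks minus 1 week the count was 0 without the filter on low counts and with the ribosomal RNA share. The causes were not tested. Counts under these settings, and those with libraries left out, are given here without the share of all genes called.

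When each library was left out in turn, counts ran from 1 to 16 (males 24 h), 28 to 30 (males 1 week), 5 to 18 (males 5 weeks), 8 to 18 (females 1 week) and 12 to 15 (females 5 weeks). For the differences they ran from 21 to 31 (males, 1 week minus 24 h) and 0 to 1 (females, 5 weeks minus 1 week), and were 0 in each fit of the other 3 differences. Of 78 other settings of these counts 66 stayed within 1.5 times, and of 413 settings of single named members 368 kept direction and call, 27 lost the call, 16 gained it and 2 turned. Some members near 1 CPM, such as E2f8 and Bub1b, had wide errors, and so did Mki67, which has a higher level but varied widely between libraries. A difference between arms within such errors was not detectable.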
